A study of Mus musculus with 24 samples.

Results

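The acyl-CoA thioesterases described here are 9 genes of mouse liver, Acot1, Acot2, Acot3, Acot4, Acot7, Acot8, Acot9, Acot12 and Acot13. They were chosen by gene name, and by their levels (below), from the 13 Acot genes in the expression tables, and all 9 were among the 12261 genes tested of 43629 gene identifiers. Livers came from old mice of about 19 months and young mice of about 4 months, all wild-type C57BL/6, an inbred laboratory strain. Tissue was taken every 4 h at zeitgeber times (ZT, hours counted from lights on) 2, 6, 10, 14, 18 and 22, with 2 replicate libraries for each age and time, so 12 libraries per age and 24 in all. Whether the replicates of a group came from separate animals is not stated, so p-values measure the spread between these libraries, which may be technical. The named members leave out Acot5, Acot6, Acot10 and Acot11, the 4 Acot genes with the lowest levels, so the level in TPM counts as used by the choice and is described without a test. The age and time patterns of these data were also known when the family was taken up. Each adjusted p below is that gene's own row in a test across all genes and is no independent evidence about the family.

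Acyl-CoA thioesterases split the bond between a fatty acyl group and coenzyme A, which gives a free fatty acid and free CoA. They act against the acyl-CoA synthetases, and in the hepatocyte they sit in the cytosol, the mitochondria and the peroxisomes, the compartments in which acyl-CoA is made, burned or shortened. The type I enzymes, Acot1 to Acot6, are related to the bile acid conjugating enzyme Baat and lie side by side on mouse chromosome 12. The type II enzymes are unrelated to them in sequence and carry the hotdog fold. PPARalpha, the nuclear receptor that senses fatty acids, is known to induce several type I genes in mouse liver in fasting.

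Libraries held 0.435 to 0.616 gigabases of mapped sequence in old liver and 0.484 to 0.683 gigabases in young liver, as computed from the deposited coverage and FPKM. Levels are scaled TPM (transcripts per 1000000, scaled further between libraries). They are per transcript length and are therefore set beside each other between genes. For Acot7, Acot8, Acot9 and Acot12 the low ratio of coverage to FPKM given below limits this. The hepatocyte markers Alb, Ttr, Apoa1, Fabp1, Cps1 and Tat were all measured, and 0 of 6 passed the threshold for a difference by age. Some libraries stood apart from the rest. The summed level of 8 pancreatic acinar markers was at most 11.7 TPM in old libraries, against 3554.8 TPM in replicate 2 of young ZT18. Replicate 1 of old ZT14 had 3.42% of its signal in mitochondrially encoded genes. Other old libraries had from 8.74%, in replicate 2 of the same old ZT14, up to 15.4%, and young libraries 11.5% to 17.1%. Markers of plasma and B cells summed to 118 to 644 TPM in old liver and 11.6 to 58.6 TPM in young liver, with 3 of 3 tested markers higher in old. Both tested neutrophil markers were higher in old, while Ly6g, which defines neutrophils, was at 0 in every library. Kupffer cell markers had a median sum of 297 TPM in old and 255 TPM in young, with 1 of 6 higher in old. Replicate 2 of old ZT10 had the highest sums of Kupffer cell markers (650 TPM) and of neutrophil markers (134 TPM). Replicate 2 of old ZT6 had the highest sum of plasma and B cell markers, and its muscle markers summed to 313 TPM, against a median of 4.75 TPM in old libraries and at most 8.46 TPM in young libraries. In bulk liver, fewer cells of a type and less RNA per cell cannot be told apart.

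The sequences of Acot1 and Acot2 come first, because they decide how far the values of these 2 genes can be told apart. The libraries were read in stretches of 50 bases. In the GENCODE M21 transcripts the coding sequences of Acot1 and Acot2 were identical at 1181 of 1236 aligned bases, 95.6%. Of 1183 aligned coding windows of 50 bases, 527 had no mismatch at all, the median window had 1 mismatch and the most divergent had 10. The first pair below is the most divergent window and the second pair a window with the median number, with the bases that differ in capitals and positions counted in each gene's coding sequence.
Acot1 coding bases 820 to 869: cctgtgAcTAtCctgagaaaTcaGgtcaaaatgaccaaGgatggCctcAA
Acot2 coding bases 943 to 992: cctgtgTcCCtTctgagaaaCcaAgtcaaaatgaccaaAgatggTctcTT
Acot1 coding bases 30 to 79: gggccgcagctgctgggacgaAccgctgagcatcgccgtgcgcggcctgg
Acot2 coding bases 153 to 202: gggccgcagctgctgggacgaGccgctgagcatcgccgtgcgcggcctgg

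A read from a window without a mismatch cannot be placed in one gene by its sequence. How the authors' alignment shared such reads is not given in the sources used here. Over whole transcripts, 27.7% of the 50-base stretches of Acot2 also occurred in another gene (595 stretches, 527 of them in Acot1). The share was 19.2% for Acot1 (745 of 3886 stretches, 527 of them in Acot2). It was 19.1% for Acot3, most often with the predicted gene Gm49366, and 4.53% for Acot4. Acot9 shared 15.2% of its stretches, all with Acot10. Acot7, Acot8, Acot12 and Acot13 shared none. Values of Acot1, Acot2, Acot3 and Acot9 as single genes are uncertain to that extent.

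**Figure D1:**
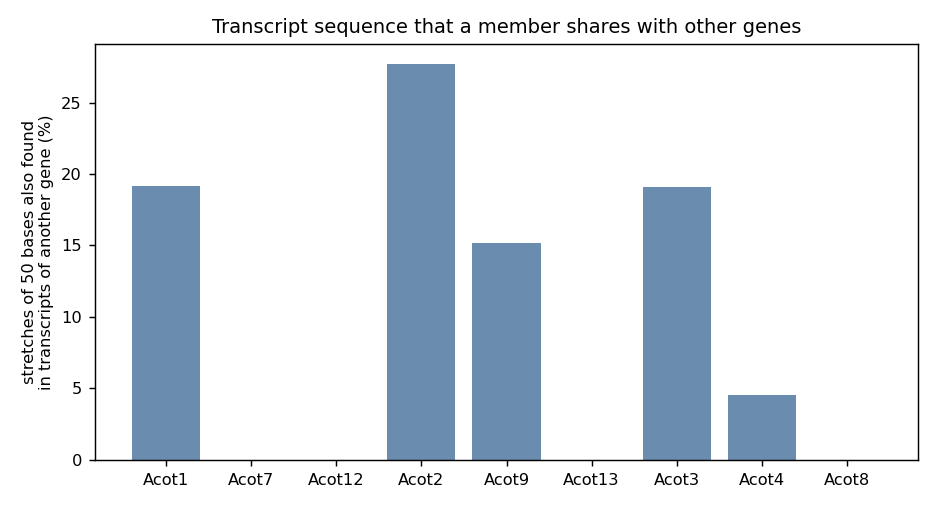
Share of each member's 50-base transcript stretches that also occur in transcripts of another gene, in percent, from the GENCODE M21 annotation. Acot2 has the tallest bar at 27.7%, Acot1 and Acot3 stand near 19%, and Acot7, Acot8, Acot12 and Acot13 are at 0.

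In order of level, Acot13 averaged 91.2 ± 15.9 TPM (SD, n = 24 libraries) and Acot12 50.4 ± 13.9 TPM, and Acot13 was above Acot12 in 23 of 24 libraries. Acot12 was above Acot1 in 24 of 24. Acot1 followed at 18.9 ± 7.40 TPM, Acot4 at 16.0 ± 6.30, Acot8 at 13.6 ± 2.16 and Acot7 at 12.5 ± 2.62. Neighbours in this middle stretch were not apart beyond their spread: Acot1 exceeded Acot4 in 16 libraries, Acot4 exceeded Acot8 in 13 and Acot8 exceeded Acot7 in 15. The place of Acot1 differed with age, since it was above Acot4 in 5 of the 12 libraries of old liver and in 11 of the 12 young ones, and its mean was below that of Acot4 in old (14.9 against 15.8 TPM) and above it in young (22.9 against 16.2 TPM). The low group was Acot3 at 5.68 ± 4.82 TPM, Acot2 at 5.46 ± 1.80 and Acot9 at 4.71 ± 1.65, again without a clear order, since Acot3 was above Acot2 in 9 of 24 libraries. Just outside the choice, Acot11 was at 1.57 ± 0.74 TPM in old and 0.824 ± 0.233 TPM in young (SD, n = 12 each). Acot6, Acot10 and Acot5 stood below 0.5 TPM on average at either age, under the filter of 1 TPM, and Acot5 was at 0 in 23 of 24 libraries. Summed over the 9 members, levels averaged 206.9 ± 21.4 TPM in old and 229.9 ± 35.7 TPM in young, of which Acot13 made up 42.9% in old and 41.1% in young. The deposited coverage was low for the FPKM of some members. The median ratio was 0.0344 for Acot7, 0.113 for Acot9, 0.297 for Acot8 and 0.302 for Acot12, against 0.523 for Acot1, Acot2 and Acot13. What this means for the places of these 4 genes in the order was not tested.

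**Figure D2:**
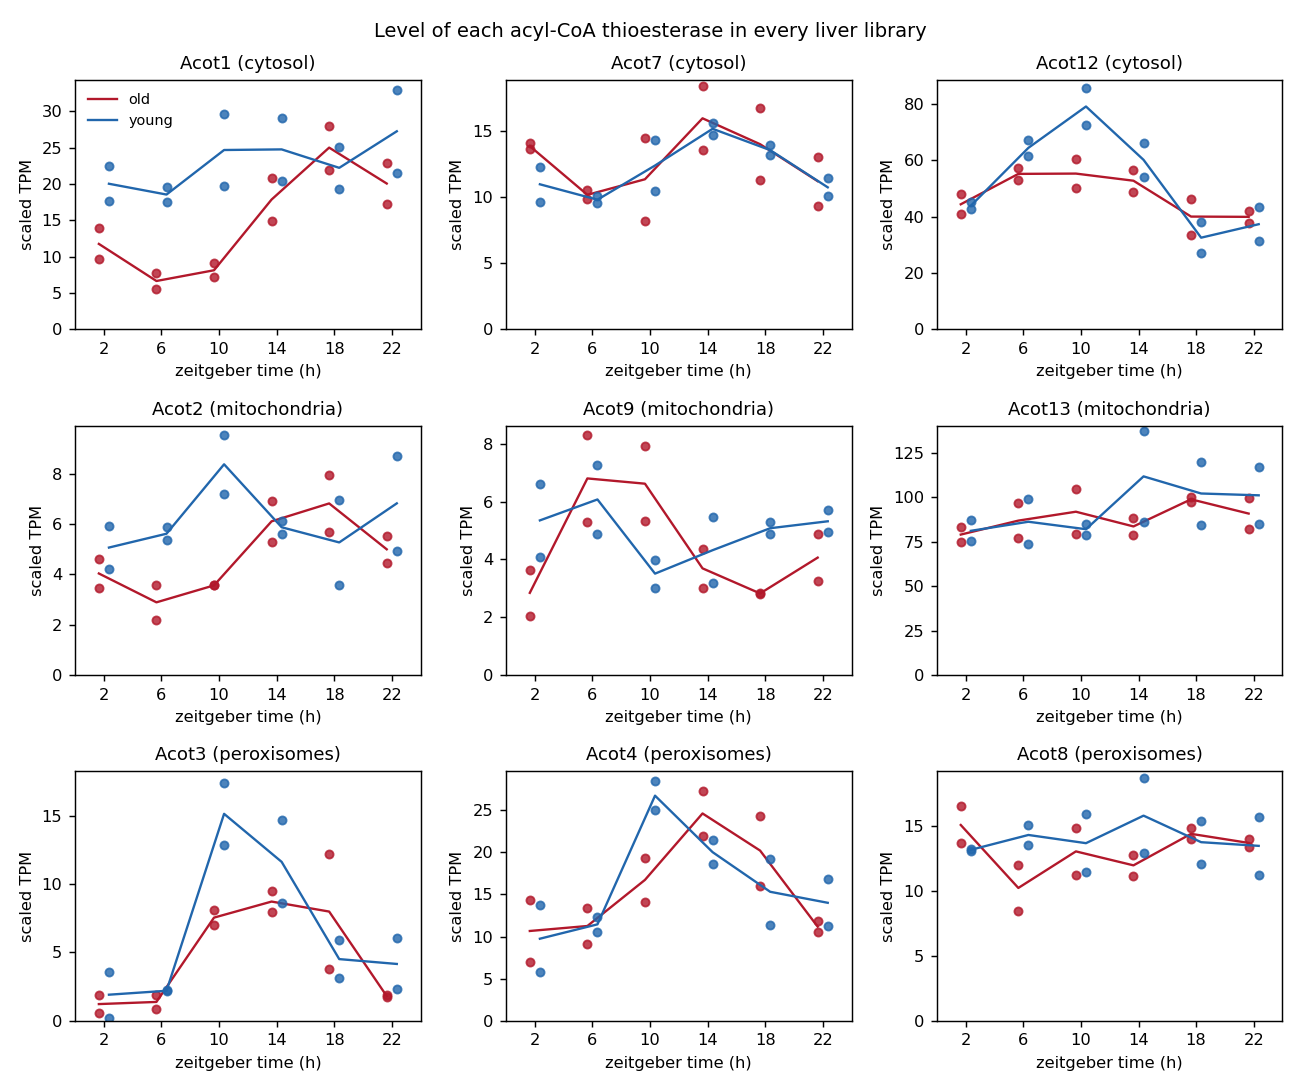
Scaled TPM (vertical axis, each panel on its own scale from 0) of the 9 members in each of 24 libraries against zeitgeber time in hours. Points are libraries, lines join the means of 2 libraries, and old (red) is drawn to the left of young (blue) at each time. Acot1 in old lies below young at ZT2, ZT6 and ZT10, Acot3 and Acot4 have their highest means at ZT10 or ZT14 at both ages, and the Acot12 mean at ZT10 is 55.3 TPM in old and 79.2 TPM in young.

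Acot1 (ENSMUSG00000072949, chromosome 12, 84009502 to 84017670, plus strand, GRCm38) is the cytosolic type I enzyme, which cleaves long-chain acyl-CoA. Its level fell in old liver, where the low values sat at ZT2, ZT6 and ZT10. At ZT2 the old libraries had 9.60 and 13.9 TPM, against 17.6 and 22.5 TPM in young. At ZT6 they had 5.50 and 7.76 TPM, against 17.5 and 19.5 TPM in young, and at ZT10 9.08 and 7.14 TPM, against 19.8 and 29.6 TPM in young. At these 3 times both old libraries lay under both young ones. Groups did not overlap, in either direction, for 34.1% of all genes tested at ZT2, 27.3% at ZT6, 35.9% at ZT10, 32.2% at ZT14, 27.8% at ZT18 and 22.3% at ZT22. At ZT14 the old libraries had 20.7 and 14.9 TPM, against 29.1 and 20.4 TPM in young. At ZT18 they had 21.96 and 28.02 TPM, against 19.3 and 25.1 TPM in young, and at ZT22 22.8 and 17.3 TPM, against 21.5 and 32.96 TPM in young. The ages overlapped at each of these 3 later times.

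Over the day Acot1 averaged 14.9 ± 7.30 TPM in old and 22.9 ± 5.12 TPM in young (SD over 12 libraries each, which spans the 6 times). The log2 difference was -0.74 (SE 0.120), with a limma adjusted p of 0.00336 over all genes, and the fitted difference was lower in old at 5 of 6 times. Acot1 was the 1 member of 9 past the threshold for age. Of all genes tested 1.64% were past it, 0.498% with lower values in old, and nothing is read from the members' count, since the contrast was known when they were chosen. Without ZT6 the log2 difference was -0.60 (adjusted p = 0.0569), and without ZT10 it was -0.58 (adjusted p = 0.0554), so the call was lost without either time. Without replicate 2 of young ZT18 and replicate 1 of old ZT14, the libraries apart in pancreatic markers and mitochondrial signal, it was -0.74 (adjusted p = 0.0122). Without replicate 2 of old ZT6 and of old ZT10, the libraries high in muscle, Kupffer cell or neutrophil markers, it was -0.75 (adjusted p = 0.0125), a setting chosen after seeing the data. With the replicate numbers kept apart, the difference was -0.62 in replicates 1 and -0.85 in replicates 2. Plasma and B cell and neutrophil markers were higher in old over the same libraries, and their part in the Acot1 difference was not tested.

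Taken one time at a time, the Acot1 difference was largest at ZT10, with log2 -1.53 (SE 0.294, adjusted p = 0.0310), where 0.53% of all genes were called and 0.0816% were called lower in old. At ZT6 it was -1.43 (adjusted p = 0.191) and at ZT2 -0.76, neither past the threshold. At ZT14, ZT18 and ZT22 it was -0.46, 0.17 and -0.41. The ZT10 call was lost without any 1 of the 4 libraries of that time, with adjusted p from 0.0816 to 0.319, although the log2 difference stayed between -1.81 and -1.24. It was also lost without ZT6 (adjusted p = 0.0545) or ZT18 (0.0597), which leave the ZT10 difference itself as it is. Without replicate 2 of old ZT6 and of old ZT10 together the ZT10 difference was -1.37 (adjusted p = 0.237). At the other times limma called 0 of 9 members. The share of all genes called was 0% at ZT2 and ZT6, 0.0408% at ZT14, 0.0245% at ZT18 and 0.00816% at ZT22. At an unadjusted p under 0.05 there were 2 members at ZT2 (4% of all genes), 2 at ZT6 (4.04%), 0 at ZT14 (7.87%), 1 at ZT18 (4.63%) and 0 at ZT22 (3.04%). The limma F test of unequal age differences over the times called 0 of 9 members and 0.0163% of all genes. At an unadjusted p under 0.05 it had 3 members, Acot1, Acot2 and Acot9, and 3.6% of all genes.

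Acot2 (ENSMUSG00000021226, chromosome 12, 83987861 to 83993873) is the mitochondrial type I enzyme and the near-copy of Acot1. At ZT6 the old libraries had 2.19 and 3.59 TPM, against 5.35 and 5.89 TPM in young, and at ZT10 3.56 and 3.56 TPM, against 7.21 and 9.55 TPM in young. At ZT2 they had 3.47 and 4.60 TPM, against 4.23 and 5.91 TPM in young. Later in the day the old libraries had 6.92 and 5.30 TPM at ZT14, 5.67 and 7.97 TPM at ZT18 and 5.53 and 4.46 TPM at ZT22, against 5.61 and 6.14, 3.59 and 6.95, and 4.93 and 8.72 TPM in young. As for Acot1, both old libraries were under both young ones at ZT6 and ZT10 and overlapped with them from ZT14 on. Over the day Acot2 averaged 4.74 ± 1.63 TPM in old and 6.17 ± 1.72 TPM in young (SD, n = 12 each), a log2 difference of -0.37 (SE 0.130) that did not pass the threshold (limma adjusted p = 0.218). The log2 difference was -0.88 at ZT6 and -1.11 at ZT10 (adjusted p = 0.176). Acot1 and Acot2 summed gave 19.6 ± 8.85 TPM in old and 29.1 ± 6.48 TPM in young. That is a ratio of 0.675, beside 0.650 for Acot1 alone, and since TPM are per length the sum also depends on how shared reads were split. At ZT10 this sum was 12.6 and 10.7 TPM in old, against 27.0 and 39.1 TPM in young. The level of Acot1 over that of Acot2 had a median of 2.91 (2.004 to 4.12) in old libraries and 3.70 (2.74 to 5.37) in young libraries.

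The peroxisomal type I enzymes had their highest means earlier, at ZT14 in old and ZT10 in young. By age their course was like that of Acot1 and Acot2. The log2 differences at ZT10 and ZT18 were -0.95 and 0.62 for Acot3 and -0.67 and 0.40 for Acot4. For Acot2 they were -1.11 and 0.39. Every member but Acot9 and Acot13 was below 0 at ZT10 and above 0 at ZT18, and none was called at ZT18. In mouse Acot3 cleaves long-chain acyl-CoA and Acot4 cleaves succinyl-CoA and other acyl-CoA of dicarboxylic acids, products of peroxisomal chain shortening. Acot3 (ENSMUSG00000021228, chromosome 12, 84052144 to 84059565) had the widest daily range of the members. Its old libraries had 0.576 and 1.86 TPM at ZT2, 0.887 and 1.87 TPM at ZT6, 8.11 and 6.97 TPM at ZT10, 9.48 and 7.95 TPM at ZT14, 3.80 and 12.2 TPM at ZT18 and 1.74 and 1.87 TPM at ZT22. The young libraries had 0.234 and 3.58 TPM at ZT2, 2.22 and 2.17 TPM at ZT6, 12.9 and 17.4 TPM at ZT10, 14.6 and 8.58 TPM at ZT14, 3.14 and 5.88 TPM at ZT18 and 2.29 and 6.02 TPM at ZT22. Levels were high at ZT10 and ZT14 and low at ZT2 and ZT6 at both ages, and both old libraries were under both young ones at ZT6, ZT10 and ZT22. The highest group mean was 7.14 times the lowest in old and 7.93 times in young. By age, Acot3 averaged 4.77 ± 3.94 TPM in old and 6.58 ± 5.59 TPM in young (SD, n = 12 each), and the log2 difference of -0.38 (SE 0.275) did not pass (limma adjusted p = 0.693). Its lowest values rest on little, since the deposited coverage went down to 0.0848 reads per base.

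Acot4 (ENSMUSG00000052392, chromosome 12, 84038379 to 84044723) had 14.2 and 19.3 TPM in old at ZT10, against 25.0 and 28.5 TPM in young, with both old libraries below. At ZT14 the order was turned round, with 27.3 and 21.97 TPM in old, against 21.4 and 18.6 TPM in young. At ZT2 and ZT6 the old libraries had 7.03, 14.3, 9.13 and 13.4 TPM, against 5.74, 13.8, 10.6 and 12.3 TPM in young, and the ages overlapped at both times. At ZT18 and ZT22 they had 16.1, 24.4, 10.5 and 11.9 TPM, against 11.4, 19.2, 11.2 and 16.8 TPM in young, again with overlap. Averaged over the day the ages were nearly level, 15.8 ± 6.26 TPM in old and 16.2 ± 6.61 TPM in young (SD, n = 12 each), with a log2 difference of -0.03 (SE 0.159, limma adjusted p = 0.976) whose sign changed with the scaling (0.08 with the deposited TPM unscaled). The log2 differences at ZT10 and ZT14 were -0.67 and 0.29, and neither passed the threshold. Acot4 was higher in replicate 2 than in replicate 1 in 10 of 12 groups, by log2 0.42 on average. What the replicate number marks is not given.

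Acot8 (ENSMUSG00000017307, chromosome 2, 164792768 to 164804882, minus strand), the peroxisomal type II enzyme with a broad range of substrates, had the smallest span of group means of the peroxisomal members, 1.47-fold in old and 1.20-fold in young. It ran from 8.47 TPM through a median of 13.5 to 16.5 TPM in old and from 11.2 through 13.4 to 18.7 TPM in young. The means were 13.1 ± 2.13 TPM in old and 14.04 ± 2.18 TPM in young (SD, n = 12 each), with a log2 difference of -0.10 (SE 0.096, limma adjusted p = 0.804) that was 0.01 with the deposited TPM unscaled. At ZT6 both old libraries, with 12.01 and 8.47 TPM, were under both young ones, with 15.1 and 13.5 TPM. The same held at ZT14, with 12.8 and 11.1 TPM in old, against 18.7 and 12.9 TPM in young. At ZT2 both old ones, with 13.7 and 16.5 TPM, were above 13.3 and 13.1 TPM in young. A gene on the opposite strand, Snx21 (3.72 TPM over all libraries), overlaps Acot8 at its 3′ end. The libraries are strand-specific by their labels, and the counting setting is not given in the sources used here.

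Acot12 (ENSMUSG00000021620, chromosome 13, 91741512 to 91786148) is the cytosolic enzyme that cleaves acetyl-CoA. At ZT10 the old libraries had 50.2 and 60.4 TPM, against 85.8 and 72.6 TPM in young, and at ZT6 53.2 and 57.3 TPM, against 61.7 and 67.25 TPM in young. At ZT18 they had 33.6 and 46.5 TPM, against 27.1 and 37.98 TPM in young, and at ZT22 37.8 and 42.0 TPM, against 31.2 and 43.5 TPM in young. The old libraries were thus the lower ones at ZT6 and ZT10 and overlapped with young at ZT18 and ZT22. At ZT2 they had 47.9 and 40.9 TPM, against 42.6 and 45.2 TPM in young, and at ZT14 48.9 and 56.7 TPM, against 66.3 and 54.1 TPM in young. Over the day Acot12 averaged 48.0 ± 8.24 TPM in old and 52.9 ± 17.96 TPM in young (SD, n = 12 each). The log2 difference was -0.08 (SE 0.0859, limma adjusted p = 0.834) and 0.03 with the deposited TPM unscaled. At ZT10 it was -0.51, which did not pass the threshold (adjusted p = 0.505).

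Acot7 (ENSMUSG00000028937, chromosome 4, 152178134 to 152271855), a cytosolic long-chain enzyme best known from brain, ran from 8.21 through a median of 13.3 to 18.4 TPM in old and from 9.57 through 11.9 to 15.7 TPM in young. Its log2 difference by age was 0.06 (SE 0.106, limma adjusted p = 0.924), and -0.01 without replicate 2 of old ZT10. Acot13 (ENSMUSG00000006717, chromosome 13, 24817948 to 24831517, minus strand), also called Them2 and found with mitochondria, averaged 88.4 ± 10.5 TPM in old and 93.95 ± 20.04 TPM in young (SD, n = 12 each). Its ages overlapped at all 6 times, and the log2 difference was -0.07 (SE 0.1001, limma adjusted p = 0.892) and 0.04 with the deposited TPM unscaled. At ZT14 the old libraries had 78.8 and 88.2 TPM, against 137 and 86.2 TPM in young, where 137 TPM was its highest level in the 24 libraries.

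Acot9 (ENSMUSG00000025287, X chromosome, 155262443 to 155297654), a mitochondrial type II enzyme, had age differences of both signs over the day, as had every other member. At ZT2 the old libraries had 3.64 and 2.05 TPM, against 4.08 and 6.62 TPM in young. At ZT10 they had 7.92 and 5.33 TPM, against 3.03 and 3.99 TPM in young, and at ZT18 2.81 and 2.84 TPM, against 4.88 and 5.29 TPM in young. At these times and at ZT22 the ages did not overlap, with old below young at ZT2, ZT18 and ZT22 and above it at ZT10. Of all genes tested, 34.1% did not overlap at ZT2, 35.9% at ZT10, 27.8% at ZT18 and 22.3% at ZT22. The log2 differences of Acot9 were -0.81, 0.82 and -0.75 at ZT2, ZT10 and ZT18, and limma's adjusted p was 1, 0.513 and 1. The test across times gave a limma adjusted p of 1. Over the day it averaged 4.48 ± 1.998 TPM in old and 4.94 ± 1.27 TPM in young (SD, n = 12 each; log2 -0.19, SE 0.138, adjusted p = 0.686).

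**Figure D3:**
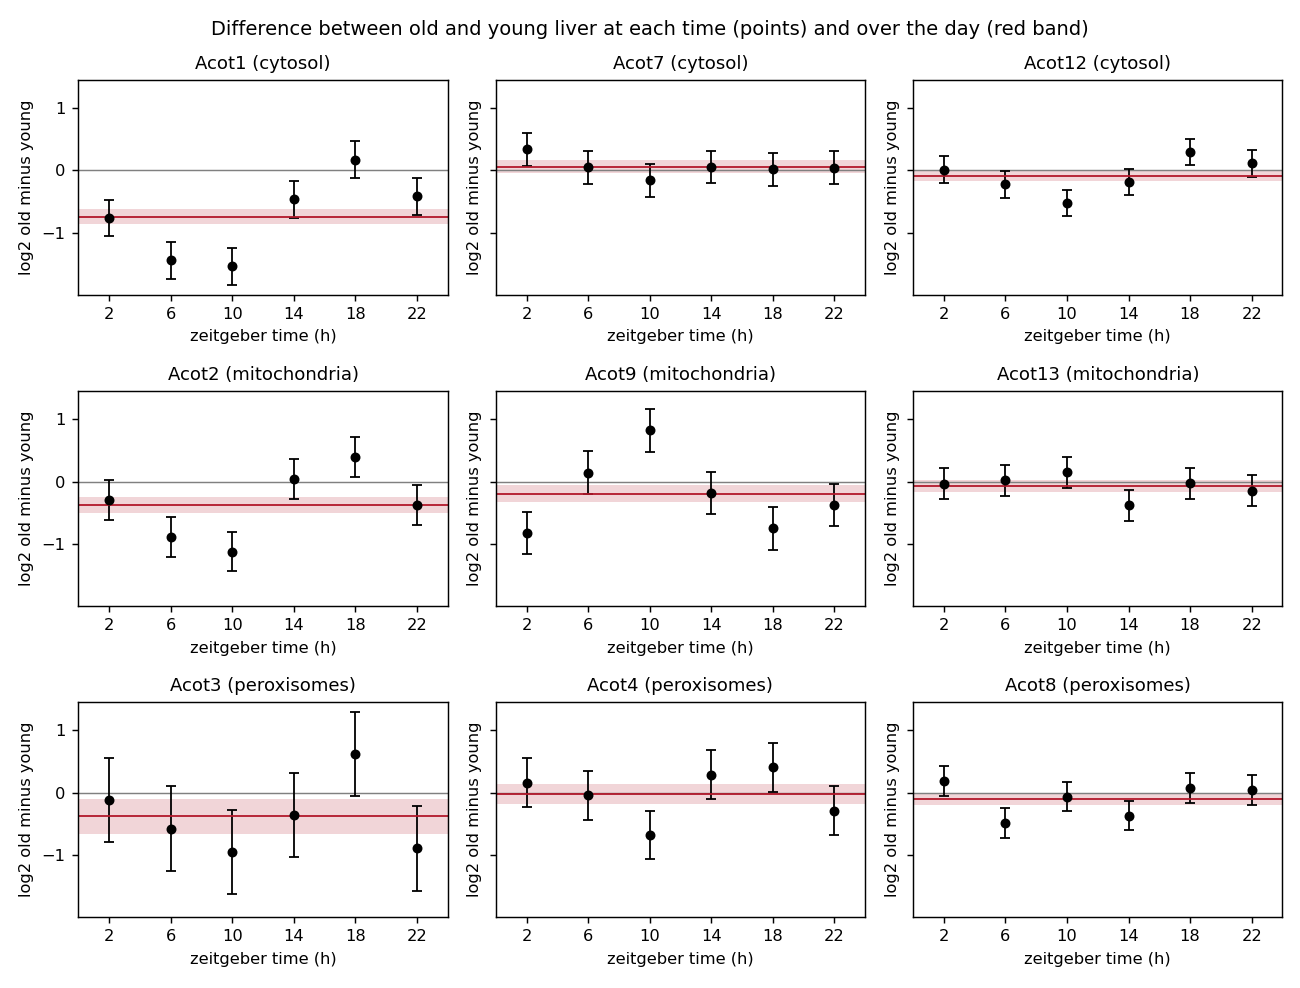
Log2 difference, old minus young, of scaled TPM plus 0.5 at each zeitgeber time (points, bars are 1 SE from limma) and over the day (red line, band 1 SE) for each of the 9 members on one common scale. The Acot1 points reach -1.53 at ZT10 and 0.17 at ZT18. Every member but Acot9 and Acot13 is below 0 at ZT10 and above 0 at ZT18, and the Acot9 points run the other way at ZT10.

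Rhythms were fitted as a cosine of 24 h in each age, and amplitude here means the log2 difference between fitted peak and trough. In old liver 4 of 9 members were rhythmic, Acot1, Acot2, Acot3 and Acot4, all of the type I members, where 8.96% of all genes passed. In young liver 3 of 9 were rhythmic, Acot3, Acot4 and Acot12, where 10.7% of all genes passed. On the mean of both ages 4 of 9 were rhythmic, Acot1, Acot3, Acot4 and Acot12, against 23.9% of all genes. A rhythm on or over both ages below is this test on the mean, and does not mean a rhythm called in each age. Nothing is read from these counts, since the profiles were known when the members were chosen. The test of the difference in rhythm itself called 0 of 9 members and 0% of all genes by limma. At an unadjusted p under 0.05 it had 4 members, Acot1, Acot2, Acot9 and Acot12, and 3.51% of all genes.

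Acot1 had an amplitude of 1.88 in old, with a peak at ZT 18.8 (adjusted p = 3.76e-05), and of 0.32 in young (adjusted p = 0.606). In group means this was a 3.77-fold span between ZT18 and ZT6 in old and a 1.47-fold span between ZT22 and ZT6 in young. The difference in rhythm had a limma adjusted p of 0.435, so a change of rhythm was not called. Acot2 had an amplitude of 1.08 in old, with a peak at ZT 17.8 (adjusted p = 0.0262), and of 0.33 in young (adjusted p = 0.660). Its old rhythm was lost without replicate 1 of old ZT6 (adjusted p = 0.116) or replicate 2 of old ZT18 (adjusted p = 0.0881). It was also lost with the deposited TPM unscaled (adjusted p = 0.0970), and without any 1 of ZT2, ZT6, ZT10, ZT14 or ZT18 (0.0505 to 0.220). Without the libraries apart in pancreatic markers and mitochondrial signal the adjusted p of Acot2 was 0.0544, while that of Acot1 was 0.000147. Without replicate 2 of old ZT6 and of old ZT10 it was 0.0591 for Acot2 and 0.000738 for Acot1. The Acot1 call in old held under every alternative run, with an adjusted p of at most 0.00389.

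Acot3 cycled at both ages, with amplitudes of 2.96 in old (peak ZT 14.2, adjusted p = 0.00547) and 2.80 in young (peak ZT 13.2, adjusted p = 0.00769). Acot4 had amplitudes of 1.29 in old (peak ZT 14.5, adjusted p = 0.0280) and 1.22 in young (peak ZT 13.0, adjusted p = 0.0354). The fitted peaks of both genes fell after ZT 14 in old and near ZT 13 in young, and a shift was not called for either, with a limma adjusted p for the difference in rhythm of 0.9999 for Acot3 and for Acot4. On the mean of both ages they peaked together at ZT 13.7, with adjusted p of 8.52e-05 for Acot3 and 0.00103 for Acot4. Single libraries decided the Acot4 calls within an age. The old call was lost without replicate 1 of ZT2, ZT6 or ZT14 or replicate 2 of ZT14 or ZT18, and the young call without any 1 of 6 young libraries, replicate 1 of ZT2, ZT10, ZT14 or ZT22 or replicate 2 of ZT6 or ZT10. With the deposited TPM unscaled the adjusted p of Acot4 was 0.0512 in old and 0.0919 in young. The old call was also lost without ZT6, ZT14 or ZT18, the young call of Acot4 without any 1 time but ZT22, and the young call of Acot3 without ZT10 (adjusted p = 0.0630) or ZT14 (0.0605). Without replicate 2 of old ZT6 and of old ZT10 the adjusted p of Acot4 in old was 0.0514. Without the libraries apart in pancreatic markers and mitochondrial signal the limma adjusted p of Acot4 was 0.107 in old and 0.0488 in young, and that of Acot3 was 0.0222 in old and 0.0149 in young. On both ages together the adjusted p of Acot4 was at most 0.00585 under the alternatives that keep all 6 times, and 0.0183 without ZT14.

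Acot12 had an amplitude of 0.56 in old (peak ZT 9.10, adjusted p = 0.0827), against 1.25 in young at the same hour (peak ZT 9.02, adjusted p = 0.000137), and 0.91 on both ages (adjusted p = 2.77e-05). The difference in rhythm between the ages had a limma adjusted p of 0.9999. In old it passed with the replicate block (0.0476), without replicate 1 of young ZT18 (0.0389) and without replicate 2 of young ZT22 (0.0438). Acot7, Acot8, Acot9 and Acot13 did not pass in either age with the settings used here. Acot9 in old had an adjusted p of 0.0985, and passed with the deposited TPM unscaled (0.0339), without replicate 2 of old ZT2 (0.0407) or replicate 1 of old ZT22 (0.0311), and without ZT2 (0.0367) or ZT22 (0.0375). Acot9 had an amplitude of 1.01 in old and 0.48 in young, Acot7 of 0.36 in old and 0.54 in young, Acot8 of 0.34 in old and 0.15 in young, and Acot13 of 0.16 in old and 0.40 in young. The median amplitude on both ages was 0.51 over the members and 0.36 over all genes tested.

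**Figure D4:**
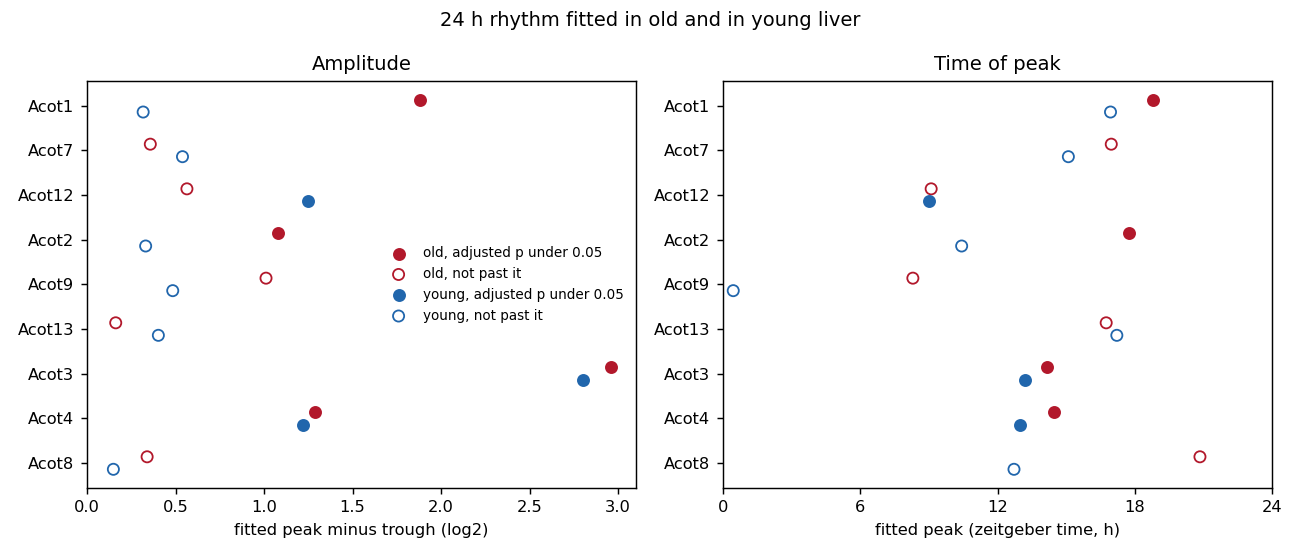
Fitted amplitude (log2 peak minus trough, left) and time of peak (zeitgeber time in hours, right) of each member in old (red, upper point) and young (blue, lower point). Filled points passed the adjusted p of 0.05. Acot1 stands at 1.88 in old and 0.32 in young, Acot3 near 3 at both ages, and Acot12 at 0.56 in old and 1.25 in young.

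Members also varied together between libraries, described here by Pearson's r of log2 levels over the 24 libraries, which share depth and composition. Acot3 and Acot4 had r = 0.944, and 0.908 when each library was set against its own group's mean. Acot1 and Acot2 had 0.867 and 0.822 on these measures, and what shared reads add to these values was not tested. With 2 libraries a group, the deviations within a group are equal and opposite, so r over deviations rests on 12 replicate differences. Replicate 2 was the higher in 10 of 12 groups for Acot4 and in 8 of 12 for Acot3. What the replicate number adds to r was not tested. Between the pairs, Acot1 and Acot3 had 0.428 over the libraries and 0.743 over deviations. Acot7 and Acot9 had -0.601 and -0.446. Among the 6991 other genes with at least 5 TPM that have a regular gene name, the most like Acot12 were Cpt1a, the carnitine acyltransferase of the outer mitochondrial membrane (0.927), Slc27a2, a very long-chain acyl-CoA synthetase (0.918), and Decr2, a peroxisomal dienoyl-CoA reductase (0.897). After Acot2, Acot1 was most like Ephx2, the soluble epoxide hydrolase (0.787), and Cyp4a10, a fatty acid omega-hydroxylase (0.777). After Acot1, Acot2 was most like Retsat, the retinol saturase (0.799), and Cyp4a10 (0.798). After its partner, Acot3 was most like Wee1, a cell-cycle kinase (0.901), and Fam102a (0.895), and Acot4 most like Fam102a (0.902) and Pik3r1, a regulatory subunit of PI3-kinase (0.882). Acot13 was most like Thoc7, a part of the mRNA-binding THO complex (0.943), Txndc17 (0.908) and Dnajc15 (0.892). The top genes had lower values for Acot7 (the co-chaperone Dnajb1, 0.772, the SUMO protease Senp2, 0.771, and Zfyve9, 0.743), Acot8 (Apoa1bp, 0.764, and the mitochondrial proteins Chchd3, 0.757, and Chchd10, 0.745) and Acot9 (Nostrin, 0.680, Tstd3, 0.636, and Ergic3, 0.632). For Acot9 and Nostrin, r over deviations was 0.157.

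**Figure D5:**
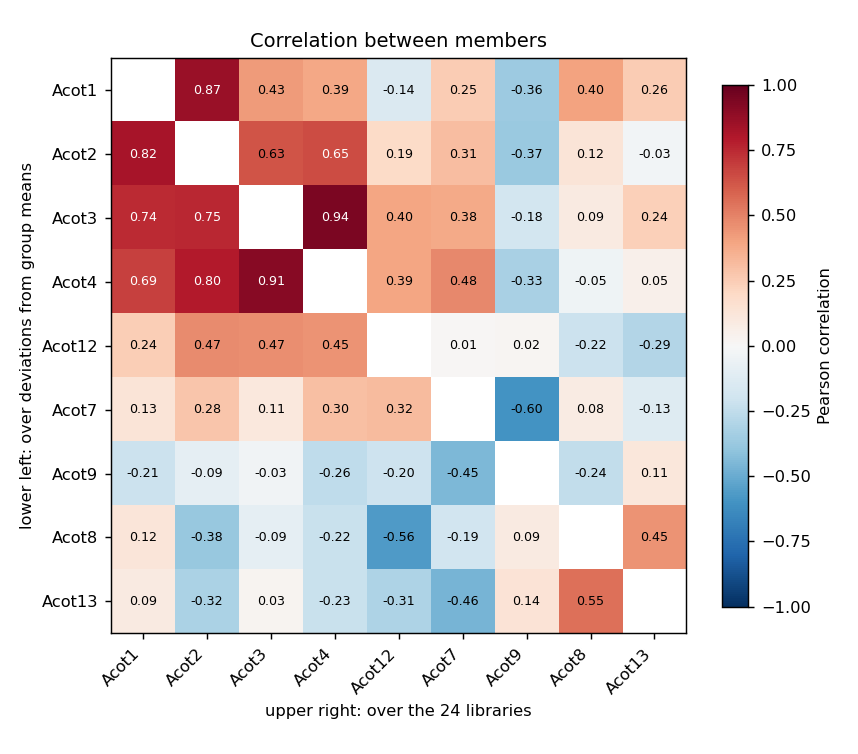
Pearson correlation of log2 levels between members over the 24 libraries (upper right) and over deviations from the means of the 12 age and time groups (lower left). The block of Acot1 to Acot4 is positive throughout, with 0.94 for Acot3 and Acot4 and 0.87 for Acot1 and Acot2 over the libraries, and Acot7 with Acot9 is negative at -0.60.

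The promoters of the 4 type I members are printed because Acot1 varied most closely with Acot2, and Acot3 with Acot4. Between these pairs r over the libraries was lower, from 0.390 (Acot1 with Acot4) to 0.652 (Acot2 with Acot4). Over deviations from group means the pairs were less apart, from 0.685 (Acot1 with Acot4) to 0.796 (Acot2 with Acot4). Within the pairs that measure was 0.822 for Acot1 with Acot2 and 0.908 for Acot3 with Acot4. The sequences run from 250 bases before to 50 bases after the start site in RefSeq on GRCm38.p6, on the plus strand of chromosome 12. Letters searched on both strands were AGGTCA (the core site of nuclear receptors), the direct repeat of AGGTCA with 1 base between, as PPARalpha with RXR binds it, CACGTG (the E-box of CLOCK and BMAL1), TTATGTAA (the D-box), CAAAGTCCA (HNF4alpha), CCAAT and TATAAA. Matches are in capitals, and any match of the direct repeat would hold AGGTCA matches.
Acot1 promoter, chr12:84009252-84009551: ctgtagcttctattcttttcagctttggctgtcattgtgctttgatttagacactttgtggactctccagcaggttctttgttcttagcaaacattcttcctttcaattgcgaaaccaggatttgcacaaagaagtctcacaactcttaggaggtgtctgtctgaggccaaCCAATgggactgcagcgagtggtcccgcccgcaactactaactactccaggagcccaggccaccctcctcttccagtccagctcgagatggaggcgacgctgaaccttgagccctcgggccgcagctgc
Acot2 promoter, chr12:83987611-83987910: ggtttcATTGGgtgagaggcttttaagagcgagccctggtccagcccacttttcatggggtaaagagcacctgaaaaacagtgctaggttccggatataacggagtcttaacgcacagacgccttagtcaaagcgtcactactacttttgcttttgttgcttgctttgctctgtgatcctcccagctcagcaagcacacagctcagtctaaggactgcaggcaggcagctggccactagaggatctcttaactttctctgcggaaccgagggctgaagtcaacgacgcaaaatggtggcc
Acot3 promoter, chr12:84051894-84052193: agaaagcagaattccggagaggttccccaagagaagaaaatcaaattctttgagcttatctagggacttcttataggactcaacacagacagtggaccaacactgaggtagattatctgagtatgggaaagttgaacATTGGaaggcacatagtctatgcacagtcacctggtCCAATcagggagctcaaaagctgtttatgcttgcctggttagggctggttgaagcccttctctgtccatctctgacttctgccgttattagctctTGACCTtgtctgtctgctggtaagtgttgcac
Acot4 promoter, chr12:84038129-84038428: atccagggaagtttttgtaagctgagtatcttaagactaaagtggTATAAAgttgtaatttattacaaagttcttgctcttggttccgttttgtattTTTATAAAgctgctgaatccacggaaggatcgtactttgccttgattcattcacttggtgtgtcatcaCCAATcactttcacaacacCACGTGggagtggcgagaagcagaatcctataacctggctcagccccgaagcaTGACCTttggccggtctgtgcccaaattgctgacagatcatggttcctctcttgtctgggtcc

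Within the 300 bases, the longest run shared by Acot1 and Acot2 was 9 bases, and that of Acot3 and Acot4 was also 9 bases. Over all pairs of members with a promoter, longest runs went from 7 bases (as for Acot1 with Acot4) to 10 bases (as for Acot1 with Acot12). The promoters were not aligned, so no percent identity can be set beside that of the coding sequences. Positions are counted from the start site and are negative before it. Acot4 held CACGTG at -66, AGGTCA on the reverse strand at -13 and CCAAT at -85. TATAAA matched 3 times in Acot4, at -205, -153 and -151, where the last pair overlaps on opposite strands. Acot3 held AGGTCA on the reverse strand at 19 and CCAAT at -113 and -77, on the reverse and the forward strand. Acot1 and Acot2 each held 1 CCAAT match, at -79 in Acot1 and at -244 in Acot2. Of 32851 promoters in the RefSeq table, 16.3% held AGGTCA, 7.15% CACGTG, 37.4% CCAAT and 13.6% TATAAA. The direct repeat (0.0396% of promoters), TTATGTAA (0.938%) and CAAAGTCCA (0.475%) were not found in the windows of these 4 genes. Of the 9 members 8 matched an entry in that table, and Acot13 did not.

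Relatives of the members outside the choice gave values on the same scale. Acnat2, an acyl-CoA:amino acid N-acyltransferase of the type I family on chromosome 4, rose in old liver, with 52.1 ± 21.1 TPM in old and 23.3 ± 12.2 TPM in young (SD, n = 12 each; log2 1.24, SE 0.223, limma adjusted p = 0.00723). Acnat1 was at 43.2 ± 14.5 TPM in old and 38.2 ± 12.6 TPM in young, with an adjusted p of 0.722. Baat, which joins bile acids to taurine or glycine, was at 354.0 ± 56.1 TPM in old and 343.0 ± 54.0 TPM in young (adjusted p = 0.869). Of 7 tested genes of the type I family and its relatives, 1 rose, 1 fell and 6 were rhythmic on the mean of both ages. Acot1, among the 6, was not rhythmic in young liver taken alone. Of 8 tested hotdog-fold genes 0 differed by age and 2 were rhythmic on the mean of both ages, Acot12 and Them4. Of all genes tested 1.64% were called by age and 23.9% for this rhythm. Nothing is read from the counts of the 2 families, since their lists were chosen with earlier results known. Them4 was at 16.9 TPM in old and 17.0 TPM in young, Them6 at 1.72 TPM in old and 1.48 TPM in young, and Them5 was at 0 in 23 of 24 libraries. The log2 difference of Acot11 was 0.58 (SE 0.149, limma adjusted p = 0.0673).

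Genes that make, carry or burn acyl-CoA were counted from lists chosen with earlier results of these data known, with no set test. By age, 0 of 15 acyl-CoA synthetases, 0 of 6 genes of the carnitine shuttle, 0 of 14 of mitochondrial beta-oxidation, 0 of 16 of peroxisomal beta-oxidation, 0 of 13 of CoA synthesis and breakdown, 0 of 8 other thioesterases and 0 of 14 regulators passed the limma threshold. Over all 12261 genes 140 rose and 61 fell. The median log2 difference was -0.10 over the 9 members, with 8 of 9 below 0, and -0.01 over all genes, of which 53% were below 0. Also below 0 were 12 of 14 genes of mitochondrial beta-oxidation, 14 of 16 of peroxisomal beta-oxidation and 5 of 6 of the carnitine shuttle. Their medians were -0.10, -0.10 and -0.21, so this lean was not particular to the members. The other lists had 9 of 15 synthetases, 7 of 13 genes of CoA synthesis and breakdown, 6 of 8 other thioesterases and 5 of 14 regulators below 0. With the deposited TPM unscaled, Acot4, Acot8, Acot12 and Acot13 were above 0. Of 18 tested genes in a list drawn up as peroxisome proliferator targets outside beta-oxidation, Acot1 among them, 2 rose and 5 fell. Whether each listed gene, Cyp4a12a and Cyp4a12b included, responds to peroxisome proliferators was not tested here. Cidec (log2 1.47, limma adjusted p = 0.00963) and Cd36 (log2 0.56, adjusted p = 0.0258) rose. Those that fell were Acot1 and, of the Cyp4a genes on chromosome 4, Cyp4a10, Cyp4a31, Cyp4a12a and Cyp4a12b. Cyp4a14 did not pass (log2 -0.85, adjusted p = 0.209). The 3 genes of this list with the smallest p were cytochromes P450 that hydroxylate fatty acids. Cyp4a12b had 58.9 ± 11.0 TPM in old and 106.4 ± 21.7 TPM in young (log2 -0.84, adjusted p = 0.000326). Cyp4a12a had 131.4 ± 24.3 TPM in old and 219.5 ± 40.9 TPM in young (log2 -0.74, adjusted p = 0.000380). Cyp4a10 had 65.8 ± 28.7 TPM in old and 159.5 ± 50.7 TPM in young (log2 -1.32, adjusted p = 0.000823). Cyp4a12a and Cyp4a12b are near copies, so their single values are uncertain. Ppara itself, at 43.1 ± 14.7 TPM in old and 48.7 ± 24.2 TPM in young, did not pass for age (limma adjusted p = 0.960). On the mean of both ages Ppara was rhythmic, with a peak at ZT 10.2 (limma adjusted p = 0.0139). On rhythm over both ages, 5 of 6 carnitine shuttle genes and 2 of 14 mitochondrial beta-oxidation genes passed, beside the 23.9% of all genes.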

How the data were processed

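Per the labels, oligo-dT selected mRNA of frozen liver was read in single, strand-specific stretches of 50 bases. Per the submitters' processing notes, HISAT2, StringTie and GRCm38 were used, with no versions given. The deposited files give coverage per base, FPKM and TPM per gene, all written by the authors' StringTie run. The authors' FPKM values are scaled for depth and length. The deposited TPM values sum to 1000000 per library. Coverage, a signal with no depth scaling, gave mapped reads through its largest ratio to FPKM. No counts were given, so counting error is unknown for single values.

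TPM were scaled here by median-of-ratios over 13270 genes above 0 in all 24 libraries. The tests used genes whose mean reached 1 TPM, with limma 3.58.1 in R 4.3.3 (eBayes with trend) on log2(scaled TPM + 0.5). Fold changes are on this scale and understate the changes of low genes. Age differences came from a means model of the 12 groups, which leaves 12 residual degrees of freedom. Rhythms came from cosine and sine terms of 24 h fitted for each age, which leaves 18. Adjusted p are Benjamini-Hochberg values over all 12261 genes tested, with a threshold of 0.05. With 2 libraries a group, an exact permutation test at a single time could not reach that threshold. Promoters are from RefSeq (GRCm38.p6) and transcripts from GENCODE M21, and alignments used Biopython 1.88. The steps were tested on simulated data.

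Members and lists were chosen with earlier results of these data known. All 9 members are named, with every measured gene of their families, up to 3 genes past the threshold with the smallest p for age in each other list, and the 3 genes most like each member. Samples were grouped by the age and time in their labels. Replicate numbers were not used to pair libraries. Alternatives were other scalings (deposited TPM or FPKM unscaled, quantile normalization), pseudocounts of 0.1 and 1, no filter or a filter at 5 TPM, no intensity trend, a replicate block, and leaving out libraries or times. Leaving out times for results other than the age difference of each member, and leaving out replicate 2 of old ZT6 and of old ZT10, were chosen after seeing the data.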

Additional observations from a re-analysis of the deposited data

How the results depend on the processing

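Counts of members called were recomputed under every alternative. The runs without a time, other than those of each member by age, and those without replicate 2 of old ZT6 and of old ZT10 were chosen after seeing the data. The count by age was 0 without ZT6 and 0 without ZT10, and 1 in the other alternatives. The count at single times, 1 with the main settings, was 0 with the deposited TPM unscaled, 0 without ZT6, ZT18 or ZT10 (which takes its own comparison away), 0 without replicate 2 of old ZT6 and of old ZT10, and 0 to 1 without single libraries. The count rhythmic in old, 4 with the main settings, was 2 without both libraries that stand apart and 2 without replicate 2 of old ZT6 and of old ZT10, where Acot2 and Acot4 dropped out each time. It was 2 without ZT6, ZT14 or ZT18, 3 without ZT10, 4 without ZT2, 5 without ZT22, and 2 to 5 without single libraries (2 without replicate 1 of old ZT6 or replicate 2 of old ZT18). The count rhythmic in young was 1 without ZT10 and 1 without ZT14, and 2 or 3 without another time. On both ages it was 5 without ZT2 (Acot7 added, adjusted p = 0.0315) and 4 without another time. Without single libraries the count was 2 to 3 for rhythm in young, 4 to 5 on both ages, and 0 for the difference in rhythm and for the age difference over times. Signs by age near 0 were not stable. Acot4, -0.03 with the main settings, was 0.082 with the deposited TPM unscaled, 0.040 with FPKM unscaled, 0.010 without both libraries that stand apart, 0.10 without ZT10 and 0.027 without ZT22, and -0.12 to 0.074 without single libraries. Acot7, 0.06 with the main settings, was -0.0081 to 0.12 without single libraries and -0.016 without replicate 2 of old ZT6 and of old ZT10. With the deposited TPM unscaled, Acot8 was 0.0051, Acot12 0.027 and Acot13 0.041, and Acot12 was 0.0035 without ZT10. The unscaled TPM moved the median of all genes by age to 0.09, against -0.01 with the main settings. Acot1 was -0.63 there (limma adjusted p = 0.0204), its adjusted p over all alternatives was 0.00209 to 0.0569, and its ZT10 call was just lost (adjusted p = 0.0523). With TPM unscaled Acot2 (adjusted p = 0.0970) and Acot4 (0.0512) lost their rhythm in old and Acot9 gained one (0.0339). Acot4 in young lost its rhythm with TPM unscaled (adjusted p = 0.0919), with FPKM unscaled (0.0516) and with no filter (0.0630). Same-numbered libraries deviated together, with a correlation over 0.1, in 52 of 66 pairs of groups (median 0.19, -0.16 to 0.45). The main fits do not model the replicate number, so their p-values leave this shared deviation in the residual spread. Where it comes from was not tested. With a replicate block the members called were 1 by age, 1 at single times, 5 for rhythm in old (Acot12 added, adjusted p = 0.0476), 3 in young and 4 on both ages, and calls by age over all genes were 353, against 201 without it. The order of levels was the same for 8 of 8 neighbours with TPM unscaled, FPKM unscaled and quantile normalization.

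Limits are the 2 libraries per age and time, the shared sequence of Acot1 and Acot2, for which the cause of a joint change in reads was not tested, and the low coverage of Acot3, Acot7 and Acot9. Depth per gene could not be given as counts. The cause of each lost call was not tested.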

Other observations

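Summed over Acot1 to Acot6, levels averaged 40.6 ± 16.5 TPM in old and 52.3 ± 17.2 TPM in young (SD, n = 12 libraries each), a ratio of 0.776. Over Acot3 and Acot4 they averaged 20.6 ± 9.92 TPM in old and 22.8 ± 12.05 TPM in young, a ratio of 0.901. As a share of all members, Acot1 made up 7.08% ± 3.10 in old and 10.01% ± 1.97 in young, and Acot12 made up 23.4% ± 4.44 in old and 22.9% ± 6.44 in young.

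Replicate 2 was above replicate 1 in 10 of 12 groups for Acot2, Acot4 and Acot7, and in 2 of 12 for Acot8. The promoter of Acot12 held AGGTCA on the reverse strand at -110 from the start site, and that of Acot8 held 3 CCAAT matches. No test was run on these values.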
